A study of Homo sapiens with 9 samples.

Results

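Collagens are the main structural proteins of the extracellular matrix, and the genes of this family were examined here in human hepatoma cells that lack apolipoprotein B (apoB) or the microsomal triglyceride transfer protein (MTP). The family was taken as the protein-coding genes whose symbol is COL, a number, A and a number. This rule found 44 genes among 58735 in the deposited counts. The rule reads names and no measured value, but the family was picked with earlier results of these data known.

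A collagen molecule is a triple helix of 3 chains, which can be copies of 1 chain or products of different genes of the same type. Fibrillar collagens assemble into the banded fibres of tendon, bone, cartilage and scar. Type IV collagens form the sheet-like network of basement membranes, FACIT collagens sit on the surface of fibrils, and type VI forms beaded filaments. Multiplexins carry a fragment that can be released from the end of the chain, and transmembrane collagens stay anchored in the cell surface. In the liver the fibrillar collagens come mainly from stellate cells and fibroblasts, whose output builds the scar of fibrosis, while hepatocytes contribute less. By these classes the 44 genes comprised 11 fibrillar, 6 basement membrane, 10 FACIT, 5 beaded filament, 2 multiplexin and 4 transmembrane collagens, and 6 with network-forming, anchoring or other roles.

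Huh-7 is a human hepatoma line that makes and secretes apoB-containing lipoproteins. Ako-3 is a single clone of Huh-7 in which exon 6 of APOB was cut by CRISPR-Cas9, and Mko-3 is a single MTTP knockout clone of the same line that was made earlier. All groups were grown in medium with serum and kept overnight without serum before RNA was taken, and each was sequenced as poly-A RNA in 3 libraries. Each knockout is 1 clone, so the effect of the knockout and the history of the clone cannot be told apart. The labels call the 3 libraries of a group biological replicates, name no sequencing batch and do not say whether the replicates were separate cultures, so that p values measure the spread between these libraries.

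The total count per library ranged from 14638727 to 20179760. APOB had a log2 fold change of -1.36 ± 0.13 (SE) in Ako-3 cells, and MTTP of -2.88 ± 0.07 in Mko-3 cells. All 9 hepatocyte markers examined, among them ALB and HNF4A, had a mean above 1 FPKM (fragments per kilobase of gene, scaled to library size) in each group. Of 9 markers of stellate cells and fibroblasts other than collagens, at most 1 (PDGFRA) had a mean above 1 FPKM in a group, their sum was 1.21 to 2.13 FPKM per library, and THY1, DCN and POSTN were at or near 0. Of 7 chondrocyte markers other than COL2A1, SOX9 and MATN3 exceeded 1 FPKM, while ACAN and HAPLN1 were at or near 0. The endothelial marker PECAM1 and the leukocyte marker LYZ were above 1 FPKM in all groups, and KDR and PTPRC were at or near 0. CDH5 passed 1 FPKM in Mko-3 cells only. The 5 leukocyte markers summed to 148 to 160 FPKM in Huh-7, 181 to 198 in Ako-3 and 184 to 198 in Mko-3 libraries, nearly all of it LYZ. The 8 endothelial markers summed to 9.93 to 11.35, 13.5 to 14.7 and 7.34 to 8.02 FPKM, mostly PECAM1. Both sums separated each clone from Huh-7 cells. So did the sum of the 7 chondrocyte markers, at 102 to 117, 76.3 to 81.3 and 98.8 to 99.4 FPKM. The hepatocyte sum separated Ako-3 cells only, at 5869 to 6158 against 5033 to 5206 FPKM in Huh-7 libraries. The sum for stellate cells and fibroblasts separated Mko-3 cells only, at 1.21 to 1.81 against 1.87 to 1.94 FPKM in Huh-7 libraries. The part of these sums in the collagen differences was not tested. The share of mitochondrial counts was 7.06% to 7.40% in Ako-3 libraries, 5.52% to 6.17% in Huh-7 libraries and 5.75% to 5.82% in Mko-3 libraries. Its part in the differences of Ako-3 cells was not tested.

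Which collagens the cells transcribed was read from the FPKM, which is per length and allows genes to be compared. A mean above 1 FPKM was reached by 10 collagen genes in Huh-7 cells, the same 10 in Ako-3 cells, and 9 of them in Mko-3 cells, where COL2A1 was missing. Of the rest, 17 genes had at most 10 counts in every library, and COL6A5 had none at all. A count of 0 allows up to 3 counts, which is 0.149 to 0.205 CPM (counts scaled to the library total) in these libraries and covers counting error only.

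**Figure D1:**
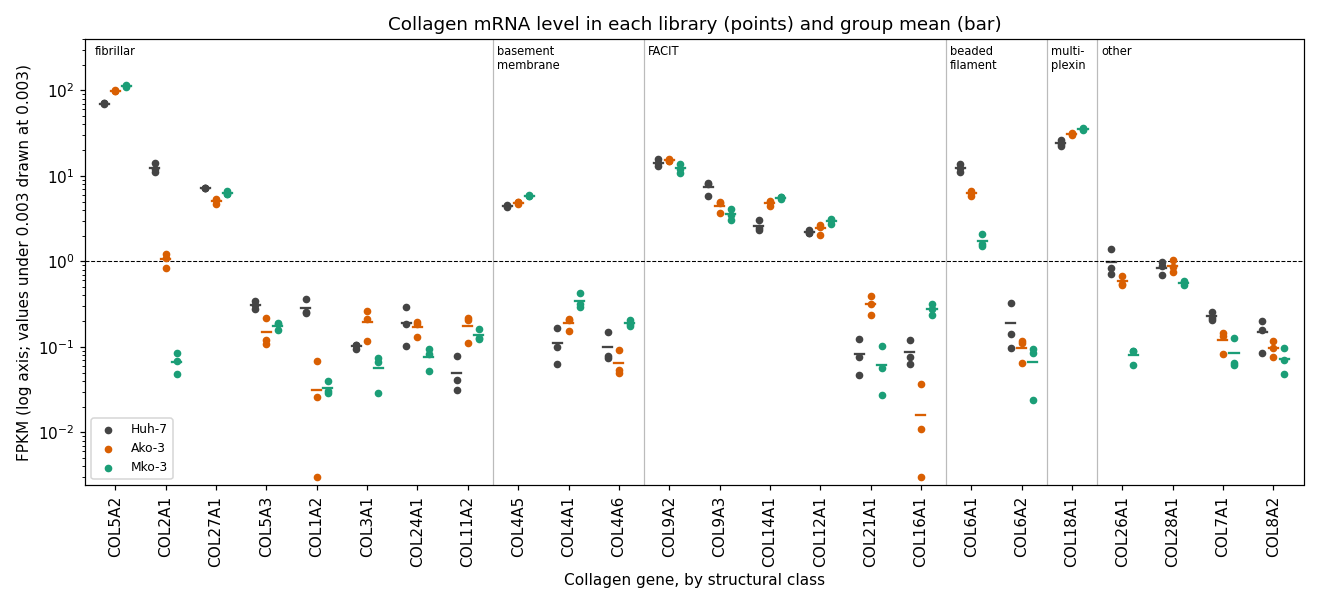
FPKM (log axis) of collagen genes with a group mean of at least 0.1 FPKM, ordered by structural class. Points are the 3 libraries of each group, short bars are group means, values under 0.003 are drawn at 0.003, and the dashed line marks 1 FPKM. COL5A2 is highest in all groups, and COL2A1 and COL6A1 step down from Huh-7 through Ako-3 to Mko-3 cells.

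The transcripts were dominated by COL5A2, the gene of the second chain of type V collagen, a minor fibrillar collagen that helps set fibril diameter. COL5A2 (ENSG00000204262; chromosome 2, 189031896 to 189225312, minus strand of hg38) was at 71.5, 68.3 and 70.2 FPKM in the Huh-7 libraries. It was at 99.99, 97.7 and 97.3 FPKM in Ako-3 and at 111, 108 and 116 FPKM in Mko-3 libraries. The 3 groups did not overlap, with both clones above Huh-7 cells. In bulk RNA, fewer cells that express a gene and less RNA per cell cannot be told apart. COL18A1 of the multiplexin class, whose released end is endostatin, came next with 23.5, 26.1 and 22.2 FPKM in Huh-7 cells. It was at 29.9, 31.2 and 31.4 FPKM in Ako-3 and at 36.2, 34.3 and 34.9 FPKM in Mko-3 libraries, again without overlap.

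In Huh-7 cells the next levels were 14.3 ± 1.46 FPKM (SD, n = 3) for COL9A2, 12.4 ± 1.42 for COL6A1 and 12.4 ± 1.5 for COL2A1. The ranges of those 3 genes overlapped, but within each Huh-7 library COL9A2 was above COL6A1. The place of COL2A1 relative to these genes changed between libraries. COL9A3 at 7.37 ± 1.31 FPKM and COL27A1 at 7.25 ± 0.078 FPKM also overlapped, and COL4A5, COL14A1 and COL12A1 followed at 4.41, 2.59 and 2.18 FPKM. In Mko-3 cells COL6A1 had dropped to 1.75 ± 0.307 FPKM, the lowest of the 9 genes above 1 FPKM, and COL2A1 to 0.0669 ± 0.0178 FPKM. In Ako-3 cells these genes lay between, at 6.26 ± 0.445 and 1.05 ± 0.190 FPKM.

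As a share of all collagen FPKM, COL5A2 made up 43.6% ± 1.16 (SD, n = 3) in Huh-7, 55.6% ± 0.932 in Ako-3 and 59.6% ± 1.40 in Mko-3 cells. COL18A1 made up 14.9%, 17.5% and 18.7%. COL6A1 held a falling share of 7.73%, 3.54% and 0.931%, as did COL2A1 with 7.69%, 0.596% and 0.0357%. By class, the fibrillar share was 56.4% ± 0.735 in Huh-7, 59.5% ± 0.848 in Ako-3 and 63.3% ± 1.28 in Mko-3 cells. The FACIT share was 16.6%, 15.5% and 13.1%, and the beaded filament share 7.86%, 3.65% and 0.970%. Basement membrane genes held 2.89%, 2.88% and 3.41% of the sum.

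The sum itself was 161 ± 4.33 FPKM (SD, n = 3) in Huh-7, 177 ± 0.655 in Ako-3 and 188 ± 6.72 in Mko-3 cells, which is 0.0591%, 0.0576% and 0.0653% of all FPKM. The log2 ratio of the sums of Ako-3 and Huh-7 cells was 0.14 on the deposited scale and -0.04 when every library was given the same total, so its direction depended on the scale. For Mko-3 against Huh-7 cells it was 0.22 and 0.14. Shares within the family do not depend on this choice.

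**Figure D2:**
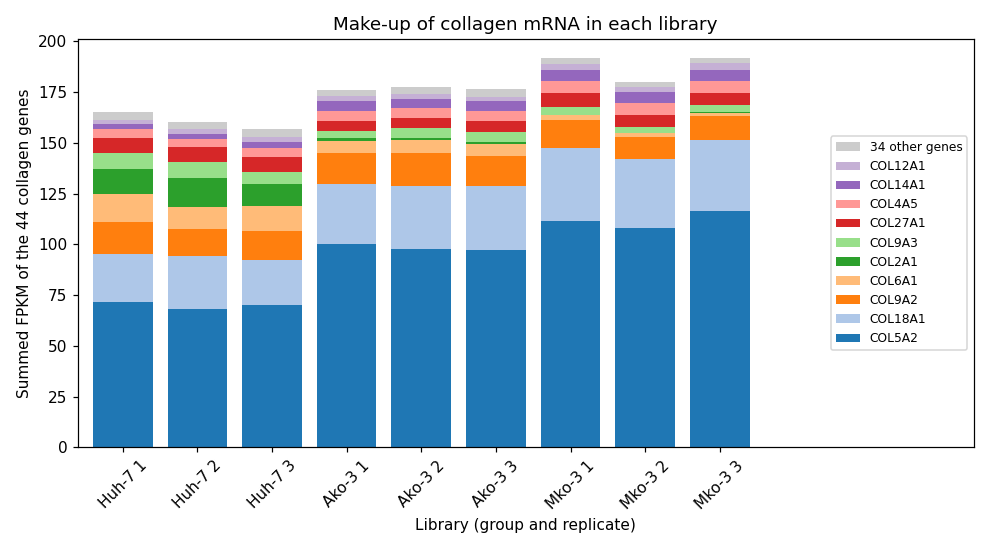
Summed FPKM of the 44 collagen genes in each of the 9 libraries, split into the 10 genes above 1 FPKM in Huh-7 cells and the other 34. The COL5A2 segment grows from 68.3 to 71.5 FPKM in Huh-7 libraries to 108 to 116 FPKM in Mko-3 libraries, while the COL2A1 and COL6A1 segments shrink.

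Some abundant chains had partner chains near the limit of detection. COL5A1, which supplies the most common partner chain of COL5A2 in type V collagen, had 0, 0 and 0 counts in Huh-7, 0, 1 and 0 in Ako-3 and 2, 2 and 0 in Mko-3 libraries. COL5A2 had 7776 to 10019 counts in Huh-7 libraries. The third type V gene, COL5A3, had 44, 32 and 34 counts in Huh-7, 12, 29 and 14 in Ako-3 and 19, 23 and 19 in Mko-3 libraries. The ratio of COL5A2 to COL5A3 in FPKM had a median of 220 in Huh-7 (206 to 254), 818 in Ako-3 (453 to 932) and 637 in Mko-3 libraries (562 to 705). Both clones lay above Huh-7 cells and overlapped each other. COL1A1, the major chain of type I collagen, had 11, 3 and 2 counts in Huh-7, 7, 3 and 5 in Ako-3, and 9, 6 and 3 in Mko-3 libraries, and was not tested.

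Type IX collagen, a FACIT of cartilage built of 3 different chains, showed the same gap. COL9A1 had 0 counts in all Huh-7 and Mko-3 libraries and 0, 1 and 2 in Ako-3 libraries, whereas COL9A2 had 782 to 1337 counts over the 9 libraries. COL9A2 and COL9A3 differed less: the ratio of their FPKM had a median of 1.93 in Huh-7 libraries (1.63 to 2.39), 3.31 in Ako-3 (3.05 to 4.05) and 3.47 in Mko-3 libraries (3.39 to 3.50). The ranges of both clones lay above that of Huh-7 cells. In type XI, whose chains resemble those of type V, COL11A1 had 1, 3 and 1 counts in Huh-7, 0, 2 and 0 in Ako-3 and 1, 0 and 0 in Mko-3 libraries.

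**Figure D3:**
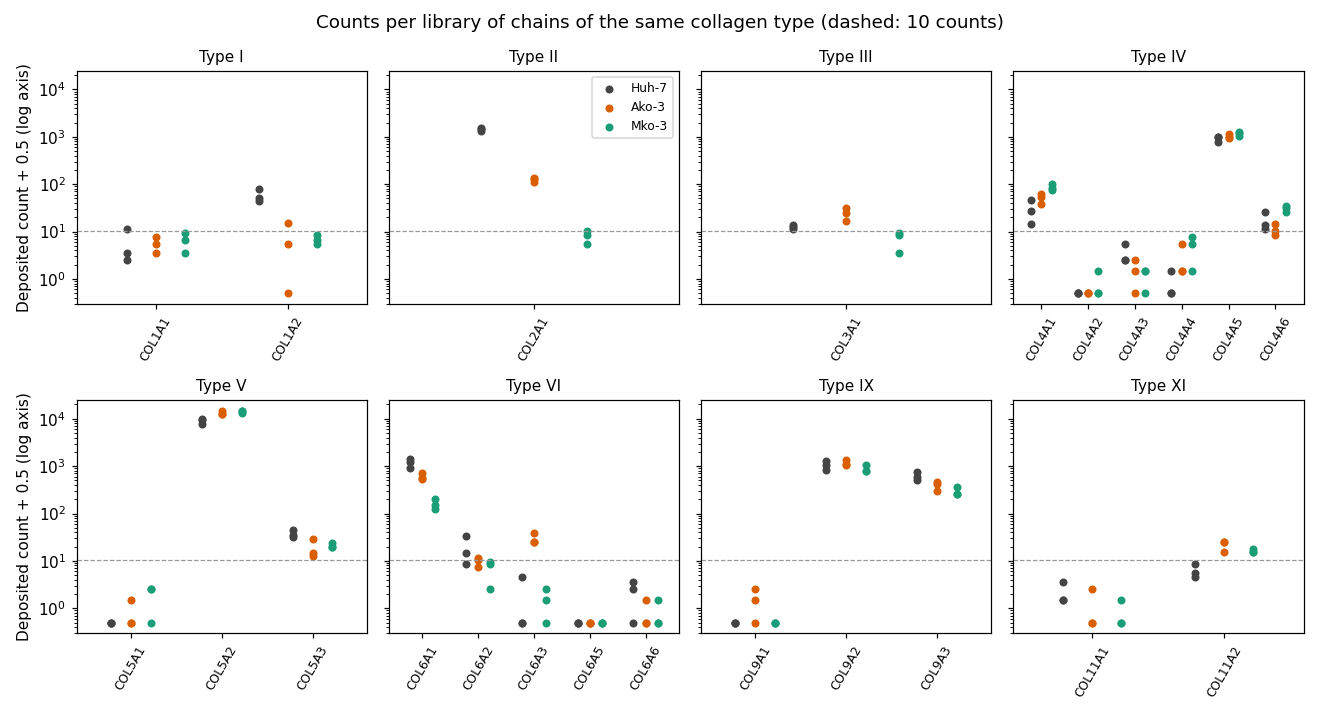
Deposited counts plus 0.5 (log axis) of the chains of 8 collagen types, with 1 point for each of the 3 libraries of a group. The dashed line marks 10 counts. COL4A2, COL5A1, COL6A5 and COL9A1 lie below the line in every library, beside chains of the same type with at least 126 counts.

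Of the 44 genes, 24 passed the filter on low counts in at least 1 comparison and 20 in none. Differences were tested with edgeR's quasi-likelihood F test over all genes that passed, with Benjamini-Hochberg adjusted p values. Genes were called where the log2 fold change was 1 or more in either direction and the adjusted p did not exceed 0.05. The values below are log2 fold changes of CPM with their standard error. Both clones were compared with the same Huh-7 libraries, so their values are set side by side only, and the clones were compared with each other directly.

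In Ako-3 against Huh-7 cells, 3 collagen genes were called higher and 4 lower of 24 tested (29.2%), where 8.52% of all genes tested were called, 3.52% higher and 5.00% lower. In Mko-3 against Huh-7 cells, 4 were higher and 7 lower of 21 (52.4%), where 11.0% of all genes were called, 3.82% higher and 7.22% lower. In Mko-3 against Ako-3 cells, 2 were higher and 7 lower of 22 (40.9%), against 5.73% of all genes, 2.26% higher and 3.47% lower. At the adjusted p alone 17, 20 and 19 collagen genes passed, where 49.9%, 54.0% and 41.6% of all genes did. The median log2 fold change of the collagen genes tested was -0.08, -0.24 and -0.34 in these comparisons, and that of all genes tested -0.01, -0.01 and 0.00. These shares do not describe the whole family. Of the genes tested, 5, 5 and 6 averaged under 10 counts in 1 of the groups compared and so passed the filter mainly through the other group, which favours a difference, and 4, 4 and 6 of them were called. They were COL1A2, COL6A2, COL6A3, COL11A2 and COL16A1 in Ako-3 cells, COL1A2, COL2A1, COL3A1, COL11A2 and COL26A1 in Mko-3 cells, and COL2A1, COL3A1, COL6A3, COL16A1, COL21A1 and COL26A1 between the clones. Of the others, 3 of 19, 7 of 16 and 3 of 16 were called. The share of all genes called under this same cut was not computed, so these counts cannot be read as an excess. Over the 10 genes with a mean above 1 FPKM across all libraries, 1, 4 and 2 were called, where 5.26%, 7.26% and 2.99% of all tested genes at that level were. In all, 16 collagen genes were called in at least 1 comparison.

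**Figure D4:**
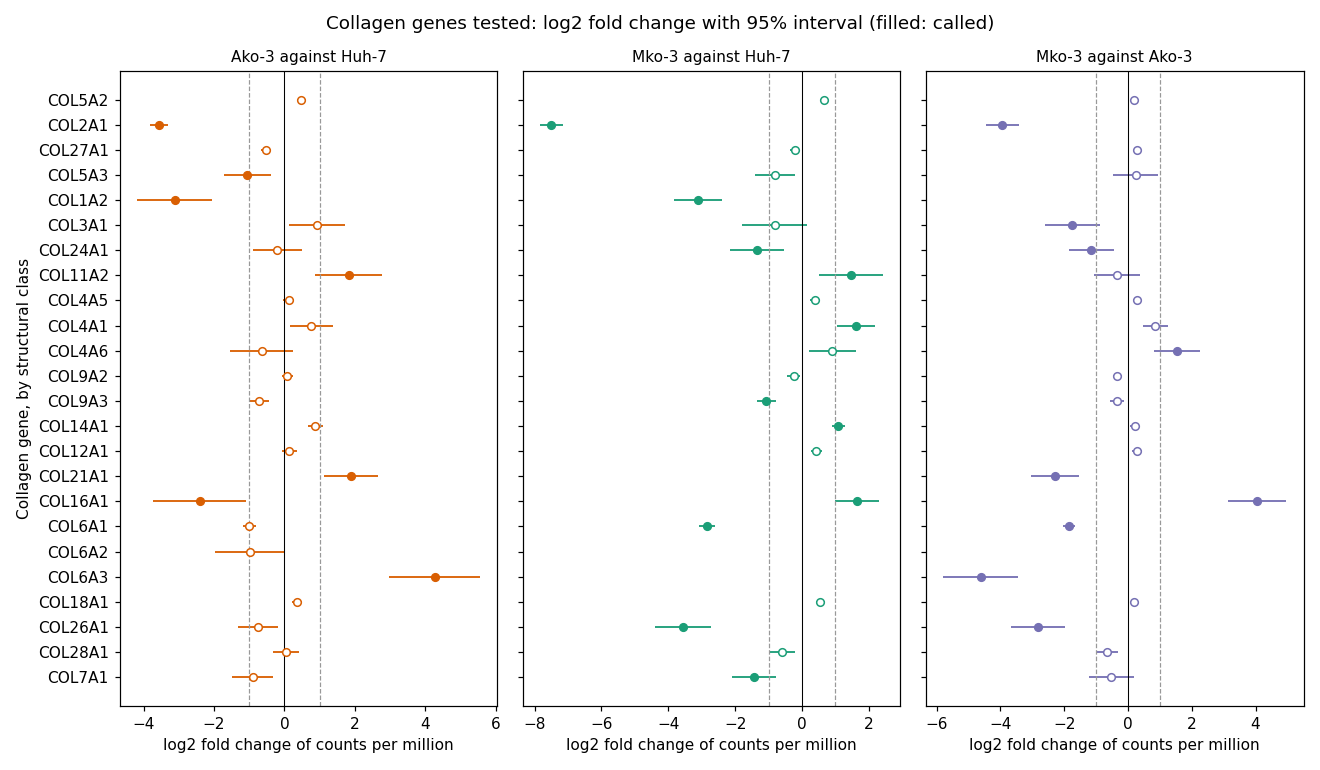
Log2 fold change (x axis) of each collagen gene tested, with its 95% interval, in the 3 comparisons. Filled points were called, open points were not, dashed lines mark a log2 fold change of 1 in either direction, and genes with no point were not tested. Called genes lie on both sides of 0 in every comparison. The x axes differ in range.

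Among the fibrillar collagens, COL2A1 showed the widest range of the family. COL2A1 (ENSG00000139219; chromosome 12, 47972965 to 48004554, minus strand) encodes the single chain of type II collagen, the main collagen of cartilage. It had 1514, 1425 and 1340 counts in Huh-7, 134, 112 and 128 in Ako-3, and 10, 8 and 5 in Mko-3 libraries, 3 levels without overlap. The log2 fold change was -3.57 ± 0.12 in Ako-3 cells (adjusted p = 8.7e-14) and -7.50 ± 0.16 in Mko-3 cells (adjusted p = 8.4e-19), or 11.9-fold and 181-fold lower. Mko-3 cells were 15.3-fold below Ako-3 cells, at -3.94 ± 0.26 (adjusted p = 7.2e-22).

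COL1A2, the second chain of type I collagen (chromosome 7, 94394561 to 94431232, plus strand), was low in Huh-7 cells and lower in both clones. It had 77, 43 and 50 counts in Huh-7, 0, 15 and 5 in Ako-3, and 8, 6 and 5 in Mko-3 libraries. The clones overlapped with each other and neither reached the Huh-7 libraries. The log2 fold change was -3.12 ± 0.50 in Ako-3 (adjusted p = 0.00012) and -3.10 ± 0.34 in Mko-3 cells (adjusted p = 1.6e-07). Without Ako-3 replicate 2 the first was -4.39.

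COL3A1, the chain of type III collagen, was called only between the clones. It had 12, 11 and 13 counts in Huh-7, 24, 16 and 31 in Ako-3 and 9, 8 and 3 in Mko-3 libraries, with Huh-7 cells in the middle. Mko-3 against Ako-3 cells gave -1.75 ± 0.43 (adjusted p = 0.00058). Against Huh-7 cells the values were 0.94 ± 0.38 in Ako-3 (adjusted p = 0.046) and -0.82 ± 0.47 in Mko-3 cells (adjusted p = 0.15), and neither was called, though the first was without Ako-3 replicate 2 (1.22). COL3A1 lies 19.1 kb from COL5A2 on chromosome 2, on the other strand. COL5A2 was at 0.49 ± 0.06, 0.66 ± 0.06 and 0.18 ± 0.04 in Ako-3, Mko-3 and Mko-3 against Ako-3 cells. These COL5A2 values passed the p threshold, the largest adjusted p being 2.7e-05, and stayed below the fold threshold.

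The other fibrillar genes were low. COL5A3 fell in Ako-3 cells, at -1.06 ± 0.32 (adjusted p = 0.0092), a call that was lost without Huh-7 replicate 1 (-0.97), Ako-3 replicate 1 (-0.87) or Ako-3 replicate 3 (-0.92). It was at -0.82 ± 0.29 in Mko-3 cells and not called. COL11A2, a chain of type XI collagen of cartilage, had 4, 8 and 5 counts in Huh-7, 24, 15 and 24 in Ako-3 and 15, 15 and 17 in Mko-3 libraries. It rose by 1.82 ± 0.46 in Ako-3 (adjusted p = 0.0026) and 1.47 ± 0.46 in Mko-3 cells (adjusted p = 0.011). The second call was lost without Huh-7 replicate 1 (1.22), without Mko-3 replicate 3 (1.35) and in DESeq2 (adjusted p = 0.064). COL2A1 and COL11A2, which both belong to cartilage collagens, changed in opposite directions in each clone.

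COL24A1, a fibrillar chain with developmental expression in bone, had 52, 15 and 32 counts in Huh-7, 29, 25 and 33 in Ako-3 and 9, 14 and 14 in Mko-3 libraries. It was lower in Mko-3 cells, by -1.36 ± 0.39 against Huh-7 (adjusted p = 0.0056) and by -1.15 ± 0.35 against Ako-3 cells (adjusted p = 0.0059). The first call was lost without Huh-7 replicate 1 (-0.93) and the second without Mko-3 replicate 1 (-0.94). COL27A1, the other chain of this subgroup and the more abundant one, was at -0.51 ± 0.07 in Ako-3 and -0.22 ± 0.07 in Mko-3 cells and was not called. COL1A1, COL5A1 and COL11A1 were not tested.

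The basement membrane genes lie in head-to-head pairs. RefSeq places the starts of COL4A1 and COL4A2 127 bp apart on chromosome 13, and those of COL4A6 and COL4A5 380 bp apart on the X chromosome for the nearer of its COL4A6 starts. The bases before COL4A5 are shown because they lie between it and COL4A6, whose counts differed widely from its own. They are chrX:108439588-108439837 on the plus strand of GRCh38.p14, from RefSeq, and hold no annotated exon, with capitals marking CCAAT in either orientation.
COL4A5: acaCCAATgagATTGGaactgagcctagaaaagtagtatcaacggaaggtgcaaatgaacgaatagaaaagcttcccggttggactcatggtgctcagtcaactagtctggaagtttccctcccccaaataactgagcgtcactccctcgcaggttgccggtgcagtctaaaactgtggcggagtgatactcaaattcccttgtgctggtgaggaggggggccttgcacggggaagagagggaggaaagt

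Genes of 1 pair had very different counts. COL4A1 (ENSG00000187498; chromosome 13, 110148963 to 110307233, minus strand) had 46, 14 and 27 counts in Huh-7, 37, 61 and 54 in Ako-3 and 84, 76 and 98 in Mko-3 libraries. COL4A2, whose chain joins that of COL4A1 in most basement membranes, had 1 count in a single Mko-3 library and 0 in the other 8. COL4A1 was higher in Mko-3 than in Huh-7 cells, at 1.61 ± 0.27 (adjusted p = 4e-05), with no overlap. It was at 0.76 ± 0.30 in Ako-3 cells, where the libraries overlapped those of Huh-7, and at 0.85 ± 0.20 between the clones, and neither was called. Without Huh-7 replicate 1 the value in Ako-3 cells was 1.19 and called. The deposited gene models of the pair overlap on opposite strands.

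COL4A5, whose loss causes Alport syndrome of the kidney, was by far the most abundant type IV gene, at 4.43, 4.29 and 4.51 FPKM in Huh-7 libraries. It was at 4.92, 4.89 and 4.65 FPKM in Ako-3 and at 5.94, 5.78 and 5.79 FPKM in Mko-3 libraries. The difference of Mko-3 from Huh-7 cells was 0.39 ± 0.07 (adjusted p = 7.3e-05), below the fold threshold. COL4A6, across the shared stretch, had 13, 11 and 25 counts in Huh-7, 14, 10 and 8 in Ako-3 and 31, 34 and 25 in Mko-3 libraries. It was called between the clones only, at 1.55 ± 0.36 (adjusted p = 0.00027), and was at 0.90 ± 0.34 in Mko-3 against Huh-7 cells (adjusted p = 0.029), which was called without Huh-7 replicate 3 (1.30). All 3 tested genes of the class had positive values in Mko-3 against Huh-7 cells. The third pair, COL4A3 and COL4A4, had at most 7 counts in a library and was not tested.

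FACIT collagens moved both ways. COL9A2 had 15.9, 13.03 and 14.0 FPKM in Huh-7, 14.95, 15.9 and 15.0 in Ako-3 and 13.9, 10.7 and 12.04 in Mko-3 libraries, and each clone overlapped Huh-7 cells. It was at 0.09 ± 0.08 in Ako-3 and -0.24 ± 0.09 in Mko-3 cells and was not called. COL9A3 had 750, 591 and 517 counts in Huh-7, 296, 463 and 415 in Ako-3 and 354, 263 and 259 in Mko-3 libraries. Both clones lay below all Huh-7 libraries, at -0.72 ± 0.13 in Ako-3 (adjusted p = 0.00039, not called) and -1.06 ± 0.13 in Mko-3 cells (adjusted p = 4.3e-06). The latter call was lost without Huh-7 replicate 1 (-0.97), Huh-7 replicate 2 (-0.99) or Mko-3 replicate 2 (-0.96). COL9A3 overlaps TCFL5 on the other strand, which had up to 514 counts and was at 0.06 in Ako-3 and 0.19 in Mko-3 cells. The library preparation was described as one that does not mark the strand, so reads of such pairs cannot be told apart where they overlap.

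COL14A1, which binds fibrils and regulates their growth (chromosome 8, 120059780 to 120372036, plus strand), had 380, 321 and 475 counts in Huh-7, 703, 761 and 763 in Ako-3 and 862, 825 and 763 in Mko-3 libraries. Both clones were above all Huh-7 libraries. The difference was 1.09 ± 0.09 in Mko-3 cells (adjusted p = 4.9e-09) and 0.88 ± 0.10 in Ako-3 cells (adjusted p = 4.3e-07). The first was called, and the second only without Huh-7 replicate 3 (1.01). The direct difference of the clones was 0.21 ± 0.07 and was not called. COL12A1, its close relative, was at 0.15 ± 0.10 and 0.43 ± 0.09.

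COL16A1 was the one collagen gene called in opposite directions in the clones against Huh-7 cells. COL16A1 (ENSG00000084636; chromosome 1, 31652247 to 31704319, minus strand) encodes a minor collagen that links fibrils and cells. It had 21, 9 and 13 counts in Huh-7, 0, 2 and 6 in Ako-3 and 53, 39 and 40 in Mko-3 libraries. The log2 fold change was -2.41 ± 0.64 in Ako-3 (adjusted p = 0.0036) and 1.64 ± 0.32 in Mko-3 cells (adjusted p = 0.00016). The clones differed by 4.06 ± 0.46 (adjusted p = 6.9e-12). Summed counts were also divided by TMM-scaled depth, the library total times its TMM normalization factor. The ratio of the clones was then 17.4, with an exact 95% interval of 8.60 to 41.3 for counting error. Without Ako-3 replicate 3 the value was -3.74 in Ako-3 cells and 5.39 between the clones. An antisense gene within COL16A1 had at most 5 counts.

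COL21A1, a FACIT of blood vessel walls, went the other way. It had 10, 5 and 16 counts in Huh-7, 37, 33 and 49 in Ako-3 and 13, 7 and 3 in Mko-3 libraries, so that Ako-3 cells stood above both other groups. It rose by 1.90 ± 0.37 in Ako-3 cells (adjusted p = 0.00023), was at -2.29 ± 0.38 in Mko-3 against Ako-3 cells (adjusted p = 4.5e-07), and was not tested in Mko-3 against Huh-7 cells. COL9A1, COL19A1, COL20A1 and COL22A1 had at most 4 counts in a library.

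The beaded filament genes did not move together. The common form of type VI collagen is built of the chains of COL6A1, COL6A2 and COL6A3. COL6A1 (ENSG00000142156; chromosome 21, 45981737 to 46005050, plus strand) had 1400, 906 and 1196 counts in Huh-7, 555, 714 and 542 in Ako-3 and 200, 153 and 126 in Mko-3 libraries. The 3 groups were separate and fell in that order. The difference in Mko-3 cells was -2.84 ± 0.11 (adjusted p = 3.5e-13, 7.15-fold lower), and Mko-3 cells were also below Ako-3 cells, at -1.84 ± 0.10 (adjusted p = 3.2e-27). In Ako-3 cells it was -0.996 ± 0.089 (adjusted p = 1.6e-08), just short of the fold threshold. It was called with at least 10 counts required in every library (-1.005), and without Huh-7 replicate 2 (-1.07), Huh-7 replicate 3 (-1.002) or Ako-3 replicate 2 (-1.04).

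COL6A2, the next gene on the same strand at a distance of 93.0 kb, had 33, 8 and 14 counts in Huh-7, 10, 7 and 11 in Ako-3 and 9, 8 and 2 in Mko-3 libraries. It was tested in Ako-3 cells only, at -0.99 ± 0.47 (adjusted p = 0.087). COL18A1 lies 468 kb before COL6A1 on the same strand. It was at 0.36 ± 0.06 in Ako-3 (adjusted p = 9.6e-05) and 0.54 ± 0.06 in Mko-3 cells (adjusted p = 4e-07), opposite in sign to COL6A1. The ratio of COL18A1 to COL6A1 in FPKM had a median of 1.80 in Huh-7, 4.77 in Ako-3 and 21.2 in Mko-3 libraries, without overlap. SLC19A1, which overlaps COL18A1 on the other strand with up to 912 counts, was at 0.39 and 0.44 in Ako-3 and Mko-3 cells.

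COL6A3, the longest type VI chain (chromosome 2, 237324003 to 237414375, minus strand), moved against COL6A1. It had 0, 0 and 4 counts in Huh-7, 24, 38 and 25 in Ako-3 and 2, 1 and 0 in Mko-3 libraries, so that it was seen above the floor of 3 counts in every library of Ako-3 cells only. Summed counts per TMM-scaled depth were 21.4 times higher in Ako-3 than in Huh-7 cells (exact 95% interval 8.08 to 80.5). They were 27.4 times higher than in Mko-3 cells (9.08 to 136). COL6A3 passed the filter on low counts through Ako-3 cells alone, so its calls were favoured by the filter and are given as a description. The fitted values were 4.27 ± 0.62 and, for Mko-3 against Ako-3 cells, -4.62 ± 0.59. Leaving out Huh-7 replicate 3, which held all 4 Huh-7 counts, gave 7.82, leaving out Huh-7 replicate 1 gave 3.67, and leaving out Mko-3 replicate 1 gave -5.44. At 0.0813 ± 0.0137 FPKM (SD, n = 3), COL6A3 remained far below COL6A1 in Ako-3 cells. COL6A6 had 0, 3 and 2 counts in Huh-7, 0, 1 and 0 in Ako-3 and 1, 0 and 0 in Mko-3 libraries, and COL6A5 had none.

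Of the remaining classes, COL26A1 and COL7A1 fell. COL26A1 is an unclassed collagen first described in testis and ovary, and COL7A1 forms the anchoring fibrils that hold the skin to its basement membrane. Their promoters are shown because both fell in Mko-3 cells, and that of COL5A1 is set beside them as the window of a gene near 0 counts. The stretches are chr7:101362625-101362819 on the plus strand for COL26A1, chr3:48595330-48595579 on the minus strand for COL7A1 and chr9:134641553-134641773 on the plus strand for COL5A1. Each comes from the 250 bases before the RefSeq start on GRCh38.p14, less any base within the deposited gene model, and holds no annotated exon. Capitals mark GGGCGG in either orientation.
COL26A1: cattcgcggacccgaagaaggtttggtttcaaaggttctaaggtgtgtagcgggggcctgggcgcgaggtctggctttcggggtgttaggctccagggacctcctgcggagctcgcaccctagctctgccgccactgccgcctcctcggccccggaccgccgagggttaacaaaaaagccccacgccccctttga
COL7A1: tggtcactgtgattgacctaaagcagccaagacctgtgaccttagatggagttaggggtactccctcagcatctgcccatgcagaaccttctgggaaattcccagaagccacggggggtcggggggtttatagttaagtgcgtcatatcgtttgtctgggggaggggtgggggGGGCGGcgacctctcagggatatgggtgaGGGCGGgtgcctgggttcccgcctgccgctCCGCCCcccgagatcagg
COL5A1: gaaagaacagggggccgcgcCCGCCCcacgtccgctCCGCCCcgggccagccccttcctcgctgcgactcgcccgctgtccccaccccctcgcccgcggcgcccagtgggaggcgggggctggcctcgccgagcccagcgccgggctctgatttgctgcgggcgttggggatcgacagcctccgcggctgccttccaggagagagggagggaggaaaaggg

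COL26A1 had 42, 68 and 48 counts in Huh-7, 28, 34 and 37 in Ako-3 and 5, 5 and 3 in Mko-3 libraries, 3 groups without overlap. It fell by 3.57 on the log2 scale in Mko-3 cells (SE 0.41, adjusted p = 2.3e-07), was at -0.74 ± 0.27 in Ako-3 cells (adjusted p = 0.028, not called), and was at -2.82 ± 0.42 between the clones (adjusted p = 5.3e-08). COL7A1 had 53, 35 and 44 counts in Huh-7, 15, 32 and 26 in Ako-3 and 25, 12 and 11 in Mko-3 libraries. It was at -1.43 ± 0.32 in Mko-3 cells (adjusted p = 0.00068) and at -0.90 ± 0.28 in Ako-3 cells (adjusted p = 0.011, not called; without Ako-3 replicate 2 it was -1.06 and called). COL28A1 had 109, 70 and 117 counts in Huh-7, 83, 136 and 99 in Ako-3 and 68, 62 and 60 in Mko-3 libraries. Mko-3 cells were below both other groups without overlap, at -0.60 ± 0.18 against Huh-7 (adjusted p = 0.0084) and -0.66 ± 0.18 against Ako-3 cells (adjusted p = 0.0015), and neither was called. COL8A1 had at most 1 count and COL10A1 at most 4 in a library, and COL8A2 reached 17. Among the transmembrane genes COL17A1 had 4 to 15 counts and COL13A1, COL23A1 and COL25A1 at most 4, and none of them was tested.

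Over the 44 RefSeq promoter windows that matched 32 of the collagen genes, GGGCGG was present in 24 (54.5%) and CCAAT in 12 (27.3%) of the 250 bases before the start, on either strand. TATAAA was present in 8 (18.2%). Over all 34943 windows of the table these shares were 42.5%, 32.0% and 10.8%. The COL5A1 stretch printed above held 2 GGGCGG matches and the COL7A1 stretch 3, with 1 TATAAA, while the COL26A1 stretch held none of the 3 motifs and the COL4A5 stretch 2 CCAAT. Their GC content was 75.6%, 60.8%, 64.1% and 51.2%. The COL5A1 and COL26A1 stretches were trimmed to 221 and 195 bases, and their full windows of 250 bases were at 74.0% and 64.8%. The median of all full windows was 58.0%. These letters describe the windows and say nothing of which factor binds there. No window was matched for COL1A1, COL1A2, COL2A1, COL3A1, COL5A2, COL6A1, COL6A5, COL8A1, COL9A3, COL14A1, COL20A1 and COL22A1.

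Genes that make, export, bind or break down collagen were taken from 7 lists of 85 genes, of which 60 were tested in each comparison. In Ako-3 against Huh-7 cells 1 was called higher and 5 lower (10.0%), and in Mko-3 against Huh-7 cells 5 higher and 6 lower (18.3%), where 8.52% and 11.0% of all genes were called. Between the clones, 11 were higher in Mko-3 cells and 3 lower (23.3%), against 5.73% of all genes. Their median log2 fold change was -0.16 in Ako-3 against Huh-7 cells, 0.00 in Mko-3 against Huh-7 cells and 0.09 between the clones. Of the 60 genes tested, 2, 3 and 2 averaged under 10 counts in 1 of the groups compared. Those genes passed the filter mainly through the other group, which favours a difference.

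Of 18 tested enzymes and chaperones that modify and fold the chains, none was called in Ako-3 cells, where 8.52% of all genes were. In Mko-3 cells 1 was higher and 2 lower (16.7%), where 11.0% of all genes were called. SERPINH1, the collagen-specific chaperone HSP47, was at 14.5, 13.3 and 14.1 FPKM in Huh-7, 22.9, 21.9 and 22.9 in Ako-3 and 20.4, 22.8 and 22.3 in Mko-3 libraries. Its differences of 0.69 ± 0.07 and 0.63 ± 0.07 passed the p threshold (adjusted p = 3.6e-08 and 8.9e-08) but not the fold threshold. P4HB, a subunit of prolyl 4-hydroxylase, was at 0.22 ± 0.06 in each clone. P3H2, a prolyl 3-hydroxylase with a preference for type IV collagen, was at 1.30, 1.07 and 1.16 FPKM in Huh-7, 1.46, 1.21 and 1.25 in Ako-3 and 4.83, 4.35 and 5.35 in Mko-3 libraries. It rose by 2.02 ± 0.12 in Mko-3 cells (adjusted p = 1.7e-11).

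P3H3 fell by 1.01 in Mko-3 cells (SE 0.11), a call that 7 of the 12 alternatives lost, and FKBP10, a foldase for procollagen, was 1.58 ± 0.13 higher in Mko-3 than in Ako-3 cells. Of 9 tested genes for export and propeptide cleavage, none was called in Ako-3 and 1 was lower in Mko-3 cells (11.1%). Over all genes tested 8.52% and 11.0% were called. Of the 6 crosslinking enzymes tested, TGM2 fell in Ako-3 cells (-1.22 ± 0.07, adjusted p = 2.7e-11), with means of 42.6 FPKM in Huh-7 and 18.4 FPKM in Ako-3 cells. LOXL4 rose in Mko-3 cells, from 7.72 to 19.3 FPKM (1.31 ± 0.08, adjusted p = 2.4e-11), as did LOXL2 (1.01 ± 0.17), whose call was lost without Huh-7 replicate 2 (0.94), without Mko-3 replicate 3 (0.94) or with at least 10 counts required in every library (0.99). LOXL1, LOXL2 and LOXL4, which oxidise lysines for crosslinks, were all higher in Mko-3 than in Ako-3 cells, at 1.11 ± 0.18, 1.87 ± 0.19 and 1.33 ± 0.07. Against Huh-7 cells LOXL1 was at -0.998 ± 0.201 in Ako-3 and 0.11 ± 0.17 in Mko-3 cells. LOX, the most abundant of these enzymes, had means of 380, 293 and 327 FPKM in Huh-7, Ako-3 and Mko-3 cells. It was at -0.38 ± 0.07 in Ako-3, -0.23 ± 0.06 in Mko-3 and 0.15 ± 0.10 between the clones. LOXL3 was at -0.32 ± 0.29 between the clones. Neither LOX nor LOXL3 was called.

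The inhibitors of collagen-cleaving proteases split. Of 6 tested genes of breakdown, TIMP1 rose in Ako-3 cells (2.52 ± 0.39, adjusted p = 3.2e-05) and TIMP2 fell (-2.29 ± 0.15, adjusted p = 2e-10), at means of 0.358 and 2.11 FPKM for TIMP1 and 3.09 and 0.631 FPKM for TIMP2 in Huh-7 and Ako-3 cells. Between the clones both ran the other way, at -1.69 ± 0.30 and 1.42 ± 0.16. TIMP1 had 6, 7 and 16 counts in Huh-7 and 56, 37 and 79 in Ako-3 libraries. It thus passed the filter on low counts mainly through Ako-3 cells in that comparison, which favours a difference. TIMP3, the most abundant of the TIMP genes named here in Huh-7 cells, was at 35.7, 23.3 and 17.5 FPKM in Huh-7, Ako-3 and Mko-3 cells and was called in Mko-3 cells (-1.04 ± 0.07), though not without Huh-7 replicate 1 (-0.997) or Mko-3 replicate 3 (-0.998).

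Of 14 collagen-binding matrix proteins 7 were tested. SPARC, which binds fibrillar collagen outside the cell and eases its assembly, was at 7.13, 5.29 and 6.70 FPKM in Huh-7, 0.699, 1.24 and 1.14 in Ako-3 and 5.70, 5.14 and 6.10 in Mko-3 libraries. Its difference was -2.63 ± 0.17 in Ako-3 cells (adjusted p = 7.7e-09), where no library reached the other groups, and -0.19 ± 0.11 in Mko-3 cells. NID2, which links laminin to type IV collagen, rose in Mko-3 cells by 1.10 ± 0.10 (adjusted p = 1e-08) and was 2.00 ± 0.10 higher there than in Ako-3 cells. CHAD fell in Ako-3 cells (-1.13 ± 0.23), and MATN3 was 1.09 ± 0.06 higher in Mko-3 than in Ako-3 cells. Of the collagen receptors tested, DDR1, a receptor kinase activated by collagen, was called between the clones only, at 1.15 ± 0.10.

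SOX9, the factor that activates COL2A1 in chondrocytes, was abundant in all groups, at 84.9, 96.6 and 82.5 FPKM in Huh-7, 66.1, 61.7 and 65.9 in Ako-3 and 65.8, 67.2 and 67.4 in Mko-3 libraries. Both clones were below Huh-7 cells, by -0.45 ± 0.07 (adjusted p = 9.5e-06) and -0.41 ± 0.06 (adjusted p = 1.4e-05), and neither was called. Between the clones SOX9 was at 0.04 ± 0.04 and COL2A1 at -3.94. Whether SOX9 had a part in the COL2A1 differences was not tested. The called genes under 1 FPKM in every group were COLGALT2, ADAMTS3, ADGRG1, TNXB and RUNX2, of which RUNX2 was lower in both clones (-1.87 ± 0.40 and -2.10 ± 0.45). RUNX2 was the only gene called of the 7 transcription factors tested against Huh-7 cells. In each of these comparisons 1 of the 7 averaged under 10 counts in 1 group, which favours a difference. RUNX2 could not be fitted under every alternative. These genes under 1 FPKM were listed after their values were seen.

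**Figure D5:**
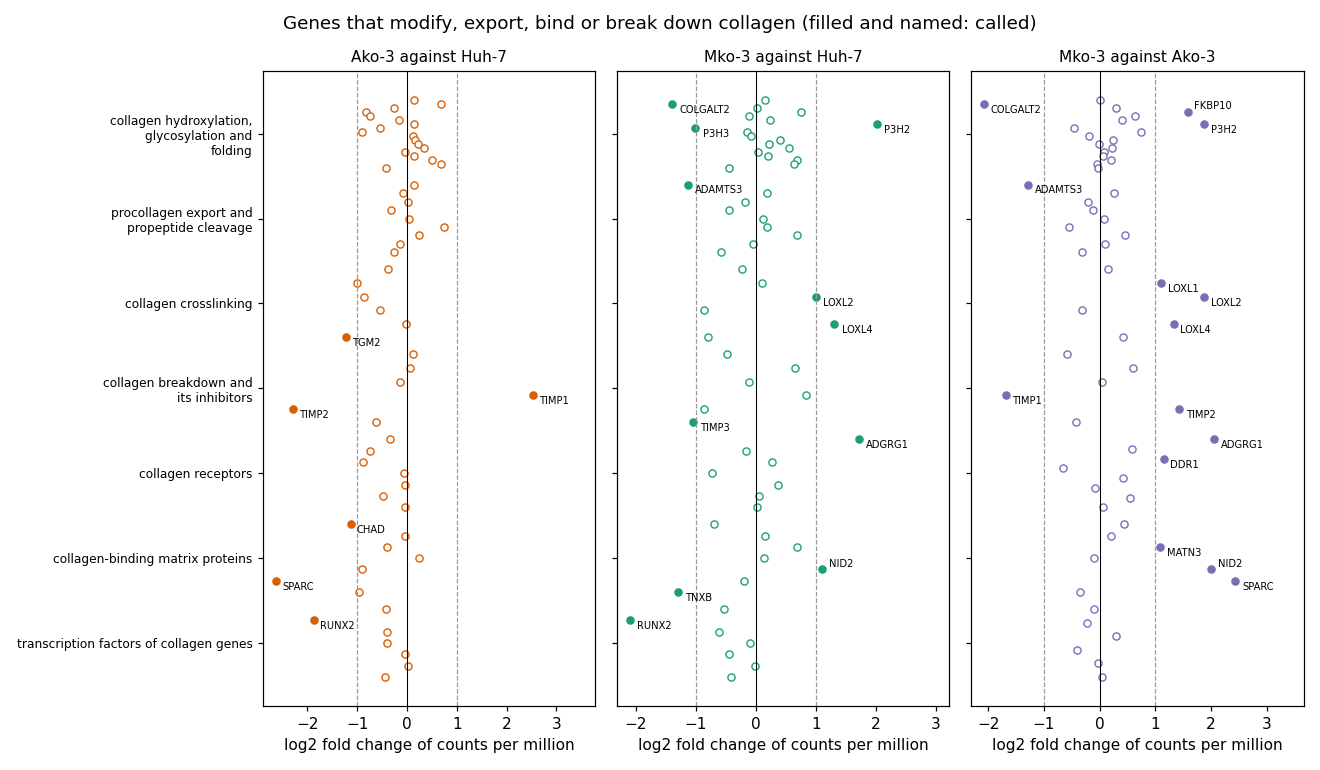
Log2 fold change (x axis) of the genes that modify, export, crosslink, break down or bind collagen, by list, in the 3 comparisons. Filled and named points were called, and dashed lines mark a log2 fold change of 1 in either direction. In the panel of Mko-3 against Ako-3 cells 11 of the 14 filled points lie to the right.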

How the data were processed

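Poly-A RNA of 3 Huh-7, 3 Ako-3 and 3 Mko-3 libraries, grouped by their labels, was analysed. Per the labels and the study's methods, the authors aligned reads to hg38 with HISAT2 2.0.5, counted them on genes with featureCounts 1.5.0-p3, and deposited raw counts of each gene. In the deposited FPKM, each count is scaled by the length of the gene and by a size factor that the values show to be that of DESeq2 over all 9 libraries, so groups were scaled together.

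Counts were tested with edgeR 4.0.16 in R 4.3.3 (TMM scaling, robust quasi-likelihood F test on the 6 libraries compared), with low genes removed by filterByExpr set to 10 counts, after a test on simulated data. Standard errors were derived from the log2 fold change and its F value. DESeq2 1.42.0, another scaling and filter, 1 fit of all libraries, a replicate block and leaving out each library were alternatives.

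The members and gene lists were chosen with earlier results of these data known. Values per library are given for called members, the 5 highest in Huh-7 cells and chains that assemble with them. Partner genes are named when called, up to 4 per list by fold change among genes of at least 1 FPKM, with SERPINH1, P4HB and SOX9. LOX and LOXL3 are given beside the other LOXL genes. Depth was 14638727 to 20179760 counts, and errors are wide for genes near 10 counts. Intervals and floors cover counting error only.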

Additional observations from a re-analysis of the deposited data

Results flagged for a closer look

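The 9 collagen genes called in Mko-3 against Ako-3 cells were singled out because the clones differed from each other in a direct test, not only from Huh-7 cells. COL16A1 (log2 fold change 4.06) and COL4A6 (1.55) were higher in Mko-3 cells. COL6A3 (-4.62), COL2A1 (-3.94), COL26A1 (-2.82), COL21A1 (-2.29), COL6A1 (-1.84), COL3A1 (-1.75) and COL24A1 (-1.15) were lower there. Of these, COL2A1 and COL6A1 had means above 1 FPKM across all libraries. COL2A1, COL3A1, COL6A3, COL16A1, COL21A1 and COL26A1 averaged under 10 counts in 1 clone. These 6 passed the filter on low counts mainly through the other clone, which favours a difference. Among the other 16 collagen genes tested between the clones, 3 were called. The share of all genes under the same cut was not computed, so this count cannot be read as an excess. With 3 libraries a group, no test for a stray library was made.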

How the results depend on the processing

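Of the 27 collagen calls, 22 kept their direction and threshold under every alternative that could be fitted, and none of the 305 values reversed. Most of the 27 calls could not be fitted with at least 10 counts required in every library, so that alternative is no check of them. The 11 values that lost a call, for COL5A3, COL9A3, COL11A2 and COL24A1, stand beside those genes. Of the 31 calls of partner genes, 24 kept direction and threshold. Alternatives for partner genes and for genes near the fold threshold were chosen after seeing the data. With the adjusted p alone, 17, 20 and 19 collagen and 35, 38 and 39 partner genes passed in Ako-3 against Huh-7, Mko-3 against Huh-7 and Mko-3 against Ako-3 cells. With at least 10 counts required in every library, 3 of 17, 5 of 14 and 1 of 14 tested collagen genes were called, and 6 of 54 partner genes in Mko-3 against Huh-7 cells, since that filter drops genes that are low in 1 group, whether they rose or fell. The collagen genes called in Ako-3 cells under it include COL6A1, which was not called in the main fit. The share of all genes called under that filter is not given, so these counts cannot be read as an excess. DESeq2 called 7, 10 and 9 collagen genes. Leaving out 1 library gave 6 to 10, 8 to 12 and 8 to 9 collagen and 7 to 9, 8 to 13 and 13 to 15 partner genes. A lower or higher limit for expression, 0.5 or 2 FPKM, gave 12, 12 and 10 or 10, 9 and 8 collagen genes in Huh-7, Ako-3 and Mko-3 cells. Rescaling each library to the same total turned the log2 ratio of summed collagen FPKM in Ako-3 against Huh-7 cells from 0.14 to -0.04.

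Same-numbered libraries did not deviate together in all pairs (correlations from -0.14 to -0.07, -0.06 to 0.11 and -0.01 to 0.09), so the numbers were not taken as pairs. With the replicate block, 7, 11 and 9 collagen genes and 6, 11 and 14 partner genes were called. Depth limits the 20 untested collagen genes, of which none exceeded 17 counts in a library.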
